A study of Arabidopsis thaliana with 9 samples.

Results

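The 41 genes described here encode the nuclear-encoded enzymes of the Calvin-Benson cycle and of photorespiration. They were taken by locus from a list of small Rubisco subunits, Rubisco activase, cycle enzymes, CP12 proteins, a carbonic anhydrase, photorespiratory enzymes and a glycolate/glycerate transporter, whatever their level. This list, and the lists of other genes below, were drawn up with earlier results of these data known. All 41 were found among the 32833 genes of the table, 25 of them in the Calvin-Benson cycle and its regulation and 16 in photorespiration, and all 41 passed the filter on low values that left 19731 genes for testing. The 9 libraries, made from poly(A) RNA of whole Arabidopsis thaliana seedlings aged 6 days, were 3 from albino seedlings of the 2cpab mutant, 3 from green seedlings of the same mutant and 3 from wild-type Col-0. All seedlings had been kept under continuous light (125 µE per m2 and s) on MS medium with 0.5% sucrose. The name 2cpab refers to 2CPA and 2CPB, which encode the chloroplast 2-Cys peroxiredoxins, and the series title places these enzymes together with the stromal chaperone cpHSP70 in the building of chloroplasts. The labels name neither the mutant alleles nor the number of seedlings per library, and the mutant groups differ by the colour of the seedlings that were picked.

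In the Calvin-Benson cycle Rubisco joins CO2 to ribulose bisphosphate, the product is reduced to triose phosphate with ATP and NADPH, and most of the triose phosphate is used to regenerate the acceptor. When Rubisco takes up oxygen in place of CO2 it makes phosphoglycolate, which photorespiration salvages in a path that runs through the chloroplast, the peroxisome and the mitochondrion. The small Rubisco subunit and all other proteins considered here are encoded in the nucleus, and many of their transcripts are known to respond to light and to be abundant in green tissue. Several cycle enzymes are switched on by thioredoxins, from which 2-Cys peroxiredoxins also draw electrons.

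Levels are given as scaled FPKM, the authors' fragments per kilobase of transcript and per library total after a scaling that gives every library the same 75th percentile. Each log2 fold change was taken from log2(scaled FPKM + 1), which understates changes of weak genes, and stands with its standard error. A gene was called at an adjusted p below 0.05 with limma and Benjamini-Hochberg adjustment over all 19731 genes. Read counts were not used here, so depth is unknown, and 22926 to 23963 genes per library were above 0. Nothing in the labels says whether replicates were grown separately, and p-values therefore reflect only how these samples spread, in part perhaps technically. Between groups of whole seedlings, fewer green cells and less RNA per cell cannot be told apart.

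Every mutant library had less RNA of both targeted genes than the lowest wild-type library. 2CPA stood at 24.2, 21.4 and 25.4 in albino replicates 1 to 3, 35.8, 267 and 256 in green replicates 1 to 3 and 989, 763 and 889.7 in wild-type replicates 1 to 3, and replicates keep this order in all lists of values below. 2CPB stood at 1.82, 2.89 and 1.52 in albino, 7.21, 48.6 and 54.2 in green and 237, 174 and 188 in wild-type libraries. Green replicate 1 stood apart from the other two green libraries, close to the albino libraries in 2CPA, so results on the green group are also given without it. Genes of light-harvesting proteins, markers of green tissue, were called lower in albino than in wild-type libraries in 11 of 11 cases, and their summed level was 2939.7 to 3357 in albino, 22946 to 31523 in green and 26432 to 40269.9 in wild-type libraries. Summed root markers stood at 3073 to 3295 in albino, 1339.8 to 1845 in green and 1623 to 1709 in wild-type libraries, and of 8 root markers 3 were called higher in albino against wild-type libraries, where 23.4% of all tested genes were, 5 in albino against green libraries, where 18.5% were, and none in green against wild-type libraries. In albino libraries the median log2 fold change of the 8 was 0.36 against the wild type, with a range of -0.15 to 1.51. Against green libraries it was 0.86, with a range of 0.19 to 1.37. Of these root markers ESB1 was listed at 0 in 2 green libraries and 1 wild-type library, and of the seed reserve genes CRU2 and CRU3 were listed at 0 in at least 1 wild-type library. Of 5 guard cell markers 4 were called lower in albino against wild-type libraries, where 20.1% of all tested genes were, 3 in albino against green libraries, where 17.7% were, and 1 in green against wild-type libraries, where 5.16% were. Of 7 seed reserve genes 4 were called higher in albino and 5 in green libraries against the wild type, where 3.71% of all tested genes were called higher in green, and none in albino against green libraries, where 1 was called lower. Of 4 epidermis and 4 phloem markers 1 each was called lower in albino against wild-type libraries. In albino against green libraries 2 phloem markers were called lower and no epidermis marker was called. Of 8 common reference genes, 1 was called lower and 1 higher in albino against wild-type libraries. The part of these shifts in the results on the 41 genes was not tested.

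Nearly the whole set was lower in albino seedlings. Because the genes were chosen with earlier results known, shares of all tested genes stand beside the counts as description only. Against the wild type 38 of the 41 genes were called lower and 1 was called higher, where 43.5% of all tested genes were called, 20.1% lower and 23.4% higher. The median log2 fold change of the 41 was -2.54, and it was 0.07 over all tested genes. Against green seedlings of the same genotype 38 were again called lower and 1 higher, where 36.1% of all tested genes were called, 17.7% lower and 18.5% higher, with a median of -2.65 against 0.05 over all tested genes. Both comparisons share the albino libraries. Albino libraries did not overlap the wild-type libraries in 39 of the 41 genes, where 56% of all tested genes did not overlap, and the green libraries in 39, where 53.3% did not. Green seedlings differed from the wild type in 1 called gene, which was lower, where 8.87% of all tested genes were called, 5.16% lower and 3.71% higher. Their 41 log2 fold changes had a median of 0.00 and ran between -0.65 and 0.38. Without green replicate 1 that median was 0.13 and the median of albino against green was -2.77.

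**Figure D1:**
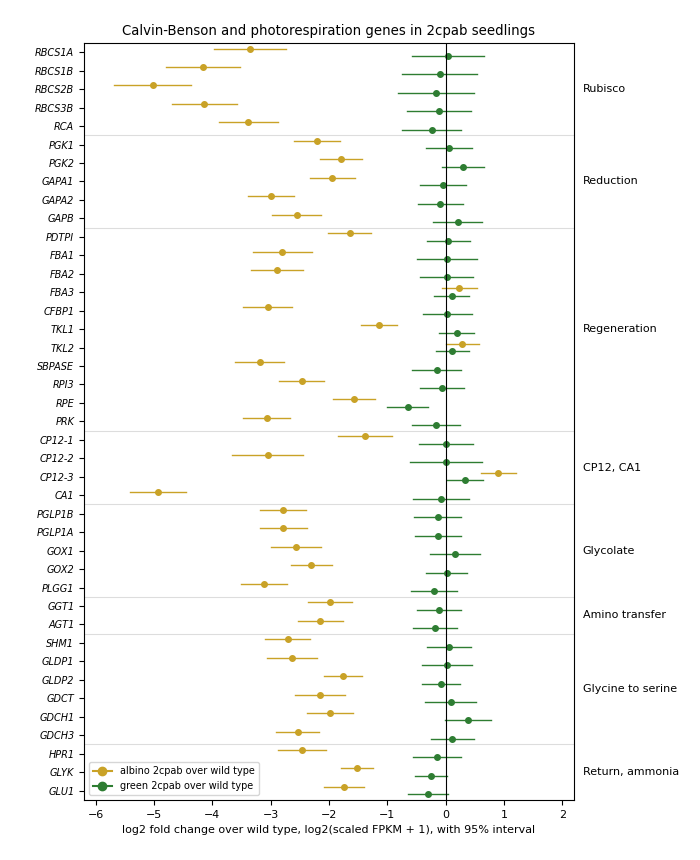
Log2 fold change over the wild type of each of the 41 genes, with its 95% interval from limma, for albino (ochre, 3 libraries) and green (green, 3 libraries) 2cpab seedlings. Albino values lie left of 0 for all genes but FBA3, TKL2 and CP12-3, while green values run between -0.65 and 0.38.

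The small-subunit genes of Rubisco and its activase had the deepest median fall of the steps, -4.14 on the log2 scale in albino against wild-type libraries, and all 5 were called lower. In that comparison 20.1% of all tested genes were called lower. RBCS1A (AT1G67090, chromosome 1, 25048158 to 25049667 in TAIR10.1), the most abundant of the 41 transcripts, stood at 2068, 1618 and 1672 in albino, 13838, 24839.7 and 19189 in green and 18425, 19541 and 16712 in wild-type libraries. Every albino library was far below every library of the other groups, and green and wild-type libraries overlapped. The log2 fold change was -3.36 ± 0.28 against the wild type (limma adjusted p = 1.4e-05) and -3.40 ± 0.28 against green (limma adjusted p = 2.12e-05). RBCS2B (AT5G38420, chromosome 5, 15380907 to 15382071) stood at 170.3, 139 and 107 in albino, 2614, 5629 and 4245 in green and 5145, 4881 and 3554 in wild-type libraries. The albino mean was 3.06% of the wild-type mean, and the log2 fold change of -5.03 ± 0.29 (limma adjusted p = 2.9e-06) was the largest fall of the set and the 8th largest fall of all tested genes. RBCS1B and RBCS3B lie beside RBCS2B on chromosome 5. RBCS1B stood at 130.0, 94.0 and 83.5 in albino, 1097, 2442 and 1789.8 in green and 2057, 1954 and 1484 in wild-type libraries, with a log2 fold change of -4.16 ± 0.28 in albino against the wild type (limma adjusted p = 5.77e-06). RBCS3B stood at 551, 421 and 461 in albino, 5646, 10137 and 8070.2 in green and 9369.5, 8724 and 7142 in wild-type libraries, with a log2 fold change of -4.14 ± 0.25 (limma adjusted p = 3.11e-06). In both genes the albino libraries were again apart from all others, and green replicate 1 was the lowest of the 6 green and wild-type libraries. The chromosome 5 copies share some sequence: 4.99% of 75-base windows of the RBCS2B transcript, 9.01% of RBCS1B and 15.0% of RBCS3B also occur in another of these genes, and none of RBCS1A, so a small share of their reads could be split either way.

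RBCS transcripts also changed in composition. RBCS1A made up 71.3 ± 0.575% of the summed RBCS level in albino, 58.3 ± 1.15% in green and 55.4 ± 2.61% in wild-type libraries (SD, n = 3 each). RBCS2B made up 5.52 ± 0.805% in albino, 12.4 ± 0.962% in green and 13.6 ± 1.22% in wild-type libraries. RCA, Rubisco activase, which frees Rubisco of bound sugar phosphates, stood at 566, 436 and 449 in albino, 3247, 5483 and 4351 in green and 5738, 5124 and 4339 in wild-type libraries. Its log2 fold change was -3.39 ± 0.23 in albino against the wild type (limma adjusted p = 5.25e-06) and -3.15 ± 0.23 against green (limma adjusted p = 1.16e-05). The plastid gene of the large subunit, rbcL, was looked at after its values were seen, and poly(A) libraries catch plastid RNA poorly. It stood at 36.7, 33.6 and 31.7 in albino, 33.6, 30.0 and 24.3 in green and 41.9, 14.7 and 20.5 in wild-type libraries and was not called in albino against the wild type (log2 fold change 0.52 ± 0.30, limma adjusted p = 0.189). The summed RBCS level over rbcL was 79.6, 67.5 and 73.4 in albino, 689.8, 1435 and 1369 in green and 834, 2386 and 1406 in wild-type libraries.

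The sequences 250 bases before the gene start are shown for 4 genes: RBCS1A as the most abundant, RBCS2B as the gene with the largest fall, CFBP1 as the other gene of the set that holds both a G-box and an I-box there, and CP12-3 as the gene that was higher in albino seedlings. They were read from the TAIR10.1 genome, 5′ to 3′ on the strand of the gene, with the G-box (CACGTG, the same on both strands) and the I-box (GATAAG, or CTTATC on the other strand) in capitals.
RBCS1A, chr1:25049668-25049917, minus strand: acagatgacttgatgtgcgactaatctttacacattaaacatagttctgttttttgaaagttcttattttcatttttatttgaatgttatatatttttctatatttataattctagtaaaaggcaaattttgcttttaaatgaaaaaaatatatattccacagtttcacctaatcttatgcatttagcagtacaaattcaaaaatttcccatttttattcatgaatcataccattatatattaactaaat
RBCS2B, chr5:15382072-15382321, minus strand: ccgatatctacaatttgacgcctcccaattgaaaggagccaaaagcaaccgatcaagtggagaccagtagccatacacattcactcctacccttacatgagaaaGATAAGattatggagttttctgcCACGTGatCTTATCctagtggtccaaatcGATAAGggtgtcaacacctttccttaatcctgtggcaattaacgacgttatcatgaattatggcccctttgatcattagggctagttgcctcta
CFBP1, chr3:20016587-20016836, plus strand: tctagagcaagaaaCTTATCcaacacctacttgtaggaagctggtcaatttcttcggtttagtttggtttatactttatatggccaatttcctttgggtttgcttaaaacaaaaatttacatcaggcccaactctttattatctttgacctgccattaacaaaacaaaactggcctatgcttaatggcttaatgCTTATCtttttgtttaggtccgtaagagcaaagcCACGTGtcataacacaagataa
CP12-3, chr1:28727956-28728205, plus strand: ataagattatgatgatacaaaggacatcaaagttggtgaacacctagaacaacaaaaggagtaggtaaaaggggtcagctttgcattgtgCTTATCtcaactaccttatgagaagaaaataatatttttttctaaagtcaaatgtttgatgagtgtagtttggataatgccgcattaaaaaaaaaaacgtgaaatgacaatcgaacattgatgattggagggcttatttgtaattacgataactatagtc

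In the RBCS2B window the G-box began 123 bases before the gene start, between I-boxes that began 146, 115 and 94 bases before it. The CFBP1 window held a G-box 22 bases before the gene start, and I-boxes 236 and 56 bases before it. In the CP12-3 window an I-box began 160 bases before the start. Neither set of letters occurred in the RBCS1A window, which says nothing of sequence farther away or inside the annotated gene. Over the set, the G-box was found before 6 of 41 genes (14.6%), RBCS2B, CFBP1, TKL2, PRK, GGT1 and GLDP1, where 7.66% of the same windows of tested genes held it. The I-box was found before 6 genes (14.6%, against 12.3% of tested genes) and the GT-1 box (GGTTAA, or TTAACC) before 7 (17.1%, against 15.1%). The shorter CCAAT box, searched on both strands, was found before 26 of 41 genes (63.4%, against 47.7%), while the evening element (AAAATATCT on either strand) and the heat-shock element were found before none, against 2.48% and 0.415%. These matches are a description of the letters in the windows. Each window ends at the annotated gene start, so boxes inside the gene itself were not counted. Some windows, that of TKL2 among them, overlap a neighbouring annotated gene, and boxes there were counted.

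**Figure D2:**
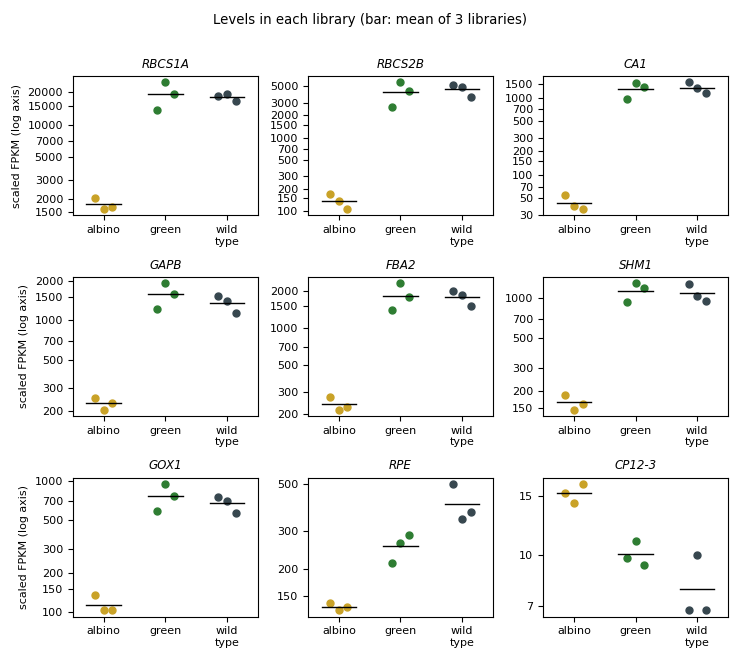
Scaled FPKM (log axis, a scale of its own in each panel) of 9 genes in the 3 albino, 3 green and 3 wild-type libraries; points are libraries in replicate order and bars are means. Albino libraries lie below all others in every panel but CP12-3, where they lie above; RPE is the gene in which green libraries also lie below all wild-type libraries.

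In the reduction steps, all 5 genes were called lower in albino seedlings in both comparisons, with a median log2 fold change of -2.21 against the wild type. Of all tested genes 20.1% were called lower against the wild type and 17.7% against green seedlings. GAPB (AT1G42970), a subunit of the NADPH-dependent glyceraldehyde-3-phosphate dehydrogenase, had the highest mean level of this step. It stood at 254, 206 and 231 in albino, 1232, 1931 and 1590.0 in green and 1536, 1414 and 1142 in wild-type libraries, a log2 fold change of -2.55 ± 0.19 against the wild type (limma adjusted p = 8.14e-06). GAPA1 and GAPA2, both genes of the other subunit, fell by different amounts. GAPA1 stood at 261, 219.9 and 252 in albino, 768, 999.8 and 988 in green and 1174, 889 and 798 in wild-type libraries. GAPA2 stood at 149.7, 125 and 126 in albino, 826, 1100.4 and 1109 in green and 1308, 1015 and 918 in wild-type libraries. The log2 fold change against the wild type was -1.95 ± 0.17 for GAPA1 and -3.00 ± 0.17 for GAPA2, so GAPA2 was the lower of the pair in albino libraries and the higher in green and wild-type libraries. PGK1 and PGK2 encode the plastid phosphoglycerate kinases. PGK1 stood at 246, 223 and 217 in albino, 865, 1367 and 1131 in green and 1165, 1094 and 931 in wild-type libraries. PGK2, the weaker gene, stood at 45.4, 41.8 and 42.0 in albino, 149, 231 and 191 in green and 163, 168 and 128 in wild-type libraries. Albino libraries were apart from the others for both, with log2 fold changes against the wild type of -2.21 ± 0.18 for PGK1 and -1.79 ± 0.16 for PGK2.

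In the regeneration steps, 9 of 11 genes were called lower in albino seedlings in both comparisons and 2 were not called, with a median log2 fold change of -2.47 against the wild type. The shares of all tested genes called lower were 20.1% against the wild type and 17.7% against green seedlings. FBA2 (AT4G38970), a plastid fructose-bisphosphate aldolase, was the most abundant of these. It stood at 272, 216 and 226 in albino, 1399, 2304 and 1763 in green and 1989, 1834 and 1508 in wild-type libraries, a log2 fold change of -2.89 ± 0.20 against the wild type (limma adjusted p = 6.09e-06). FBA1, a further aldolase, fell by a similar amount (-2.80 ± 0.23). The enzymes that commit carbon to regeneration were among the deepest falls here. SBPASE, sedoheptulose-1,7-bisphosphatase, averaged 68.7 ± 9.81 in albino, 575 ± 133 in green and 633 ± 86.0 in wild-type libraries (SD, n = 3 each), a log2 fold change of -3.19 ± 0.19 against the wild type. PRK, phosphoribulokinase, which makes the acceptor of CO2, averaged 68.9 ± 11.3 in albino, 523 ± 79.9 in green and 590.4 ± 127 in wild-type libraries, a log2 fold change of -3.07 ± 0.18. CFBP1, the stromal fructose-1,6-bisphosphatase, averaged 42.1 ± 4.85 in albino, 367 ± 82.3 in green and 359 ± 65.5 in wild-type libraries, a log2 fold change of -3.05 ± 0.19. RPI3, ribose-5-phosphate isomerase, fell by 2.47 on the log2 scale and PDTPI, the plastid triose-phosphate isomerase, by 1.65.

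Albino and wild-type libraries differed least in this step in TKL1, TKL2 and FBA3. TKL1, the main plastid transketolase, stood at 228, 216 and 187 in albino, 483, 599 and 510.5 in green and 491, 501 and 405 in wild-type libraries. Its log2 fold change of -1.14 ± 0.14 against the wild type (limma adjusted p = 0.000127) was the smallest of the 38 falls. TKL2, the weaker transketolase gene, stood at 20.0, 19.2 and 16.03 in albino, 17.6, 14.9 and 16.1 in green and 12.6, 17.1 and 15.2 in wild-type libraries. The groups overlapped, and the log2 fold change against the wild type was 0.29 ± 0.13 (95% interval 0.00 to 0.57, limma adjusted p = 0.093). FBA3 (AT2G01140), an aldolase of plastids, stood at 165, 161 and 157 in albino, 145, 171 and 129 in green and 122, 163 and 128 in wild-type libraries, also with overlapping groups. Its log2 fold change was 0.24 ± 0.13 against the wild type (95% interval -0.07 to 0.54, limma adjusted p = 0.186) and 0.13 ± 0.13 against green (limma adjusted p = 0.485). FBA3 was named because it was 1 of the 3 genes that were not lower. Both TKL2 and FBA3 were called higher in albino seedlings when the authors' scaling was undone, at log2 fold changes against the wild type of 0.68 (limma adjusted p = 0.00285) for TKL2 and 0.65 (limma adjusted p = 0.00114) for FBA3. Over all alternatives the adjusted p ran between 0.00204 and 0.287 for TKL2 and between 0.000593 and 0.435 for FBA3. Without the scaling the median of all tested genes was 0.44. With the scaling kept but wild-type replicate 2 left out, both were also called higher, at 0.38 (limma adjusted p = 0.0381) for TKL2 and 0.36 (limma adjusted p = 0.0434) for FBA3.

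RPE (AT5G61410, chromosome 5, 24683606 to 24686217 in TAIR10.1), the plastid ribulose-phosphate 3-epimerase, was the one gene called in green against wild-type seedlings. It stood at 139, 128 and 133 in albino, 214, 264 and 288 in green and 499, 344 and 367 in wild-type libraries, so that the 3 groups did not overlap and the green libraries lay between the others. The log2 fold change was -0.65 ± 0.16 in green against the wild type (limma adjusted p = 0.0329), -1.57 ± 0.16 in albino against the wild type (limma adjusted p = 4.48e-05) and -0.92 ± 0.16 in albino against green (limma adjusted p = 0.00157). The green call lay near the threshold and was lost when most single libraries were left out, albino libraries included. Leaving out an albino library did not change the log2 fold change of -0.65. Its adjusted p was 0.0916 without green replicate 1, 0.0698 without green replicate 2, 0.0704 without wild-type replicate 1, 0.0636 without wild-type replicate 3, and 0.0522 to 0.0585 without any one albino library. Over all alternatives the log2 fold change of RPE in green seedlings ran between -0.89 and -0.49 and the adjusted p between 0.0184 and 0.1.

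The CP12 proteins, small linkers that hold GAPDH and phosphoribulokinase in an inactive complex in the dark, went in both directions. CP12-2 stood at 27.7, 21.4 and 24.5 in albino, 142, 294 and 222 in green and 269.8, 231 and 148 in wild-type libraries, a log2 fold change of -3.05 ± 0.27 against the wild type (limma adjusted p = 2.19e-05). CP12-1, here the more abundant, stood at 219, 199 and 233 in albino, 430.0, 779 and 545 in green and 624, 616 and 471 in wild-type libraries, a log2 fold change of -1.38 ± 0.21 (limma adjusted p = 0.000522). Albino libraries were below all others for both. CP12-3 (AT1G76560, chromosome 1, 28728206 to 28728976), the gene with the lowest mean level of the set, stood at 15.4, 14.3 and 16.3 in albino, 9.78, 11.0 and 9.32 in green and 6.79, 9.95 and 6.83 in wild-type libraries. Every albino library was above every other library, and the log2 fold change was 0.90 ± 0.14 against the wild type (limma adjusted p = 0.000512) and 0.57 ± 0.14 against green (limma adjusted p = 0.00888). In green against wild-type libraries it was 0.33 ± 0.14 (95% interval 0.03 to 0.63, limma adjusted p = 0.184), where wild-type replicate 2 overlapped the green libraries. Without wild-type replicate 2 it was 0.50 (limma adjusted p = 0.0184), and over all alternatives the adjusted p of this comparison ran between 0.0184 and 0.54. CP12-3 was named because it was the one gene called higher.

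CA1 (AT3G01500, chromosome 3, 194426 to 198664), a stromal carbonic anhydrase that interconverts CO2 and bicarbonate, stood at 54.3, 39.6 and 35.9 in albino, 953, 1532 and 1373 in green and 1568, 1329 and 1138 in wild-type libraries. The albino mean was 3.22% of the wild-type mean. The log2 fold change was -4.94 ± 0.22 against the wild type (limma adjusted p = 1.38e-06) and -4.86 ± 0.22 against green (limma adjusted p = 2.37e-06), the 9th largest fall of all tested genes in the comparison with the wild type and the largest fall of the set in the comparison with green. Between green and wild-type libraries it was -0.08 ± 0.22 (95% interval -0.56 to 0.40, limma adjusted p = 0.881).

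All 16 photorespiratory genes were called lower in albino seedlings against both the wild type and green seedlings, at a median log2 fold change of -2.38 and -2.35. Of all tested genes, 20.1% and 17.7% were called lower in these comparisons. In the glycolate steps, GOX1 (AT3G14420), a glycolate oxidase of peroxisomes, had the highest level. It stood at 135, 103 and 103 in albino, 586, 944 and 769.9 in green and 754, 706 and 569 in wild-type libraries, a log2 fold change of -2.56 ± 0.19 against the wild type (limma adjusted p = 9.03e-06). GOX2, its neighbour on chromosome 3, stood at 107, 87.8 and 86.0 in albino, 394, 556 and 479 in green and 526, 469.6 and 405 in wild-type libraries, a log2 fold change of -2.31 ± 0.16 (limma adjusted p = 5.75e-06). Both were clearly separated between albino and the other libraries. PLGG1, the exchanger that moves glycolate out of and glycerate into the chloroplast, averaged 14.4 ± 1.67 in albino, 115 ± 19.7 in green and 133 ± 30.6 in wild-type libraries (SD, n = 3 each), and its log2 fold change of -3.11 ± 0.18 was the largest fall of the photorespiratory genes. The loci PGLP1A and PGLP1B, for phosphoglycolate phosphatase, cannot be told apart: 92.5% and 94.7% of their 75-base windows are shared, and their ratio was 1.04 to 1.05 in every library. Both were given a log2 fold change of about the same size, -2.78 ± 0.18 for PGLP1A and -2.79 ± 0.18 for PGLP1B. Both loci are still counted as separate genes throughout, though they are in effect a single measurement.

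GGT1 (AT1G23310), the glutamate:glyoxylate aminotransferase that makes glycine in the peroxisome, stood at 251, 201 and 219 in albino, 662, 979 and 826 in green and 996, 864 and 796 in wild-type libraries. Its log2 fold change was -1.98 ± 0.17 against the wild type (limma adjusted p = 1.66e-05), and that of AGT1, the serine:glyoxylate aminotransferase, was -2.15 ± 0.17 (limma adjusted p = 1.12e-05). In the mitochondrial steps SHM1 (AT4G37930), serine hydroxymethyltransferase, which makes serine from glycine, stood at 189, 146 and 160.3 in albino, 925, 1286 and 1180.0 in green and 1268, 1037 and 950.1 in wild-type libraries. The log2 fold change was -2.71 ± 0.17 against the wild type (limma adjusted p = 4.19e-06), the largest fall among the 6 genes of this step, whose median was -2.35. GLDP1 and GLDP2 encode the glycine-decarboxylating P protein. GLDP1 stood at 65.9, 51.8 and 44.3 in albino, 282, 397 and 353 in green and 404, 337 and 274 in wild-type libraries. GLDP2 stood at 49.6, 46.2 and 44.0 in albino, 125, 178 and 154 in green and 189, 153 and 142 in wild-type libraries. GLDP1 fell further than GLDP2, by 2.63 against 1.76 on the log2 scale, and both stood near the same level in albino libraries.

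The H protein, which carries the aminomethyl group, has several genes. GDCH1 stood at 136, 111 and 128 in albino, 493, 769 and 709 in green and 569, 488 and 436 in wild-type libraries. GDCH3 stood at 113, 95.1 and 96.8 in albino, 503, 774 and 684 in green and 659, 599 and 533 in wild-type libraries. Albino libraries were below all others for both, with log2 fold changes against the wild type of -1.98 ± 0.18 for GDCH1 and -2.54 ± 0.17 for GDCH3. Against the wild type, GDCH1 had the largest positive value of the 41 in green seedlings, 0.38 ± 0.18 (95% interval -0.02 to 0.78, limma adjusted p = 0.25). Without green replicate 1 it was 0.58 (limma adjusted p = 0.0496, between 0.0496 and 0.995 over all alternatives). GDCT, the T protein, had a log2 fold change of -2.15 ± 0.19 in albino against wild-type libraries.

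The 3 genes that return carbon and nitrogen had the smallest median fall of the photorespiratory steps. In albino against wild-type libraries their median log2 fold change was -1.75 and their range -2.46 to -1.52. This range overlapped those of the other photorespiratory steps, and steps were not tested against each other. HPR1 (AT1G68010), the peroxisomal hydroxypyruvate reductase, stood at 72.1, 59.0 and 66.2 in albino, 264, 387 and 345 in green and 451, 368 and 293 in wild-type libraries, a log2 fold change of -2.46 ± 0.18 (limma adjusted p = 8.19e-06). GLU1, the ferredoxin-dependent glutamate synthase that recaptures ammonia, averaged 86.0 ± 12.3 in albino, 236 ± 37.7 in green and 291 ± 32.9 in wild-type libraries (SD, n = 3 each), a log2 fold change of -1.75 ± 0.15. GLYK, glycerate kinase, averaged 43.9 ± 3.54 in albino, 107 ± 11.1 in green and 128 ± 17.5 in wild-type libraries, a log2 fold change of -1.52 ± 0.12. In GLU1 and GLYK all green libraries were also, by a narrow margin, below every wild-type library, with log2 fold changes of -0.31 ± 0.15 and -0.26 ± 0.12, without passing the test (limma adjusted p = 0.28 and 0.26). With RPE they were the 3 of 41 genes without overlap between green and wild-type libraries, where 23.8% of all tested genes did not overlap.

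The 40 genes not called between green and wild-type seedlings had 95% intervals within -0.82 and 0.78 on the log2 scale. The set moved together within libraries. Set against the mean of the wild type, the 41 genes had a median log2 difference of -0.37 in green replicate 1, 0.26 in green replicate 2 and 0.07 in green replicate 3, against 0.19, 0.02 and -0.20 in wild-type replicates 1 to 3. Green replicate 1 was the lowest green library for 38 of the 41 genes and lay below the wild-type mean for 37, and it was also the green library with the least 2CPA and 2CPB. Whether these go together was not tested. In albino replicates 1 to 3 the medians were -2.32, -2.63 and -2.58, so in this median albino libraries differed from each other by far less than from any other library.

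Together the 41 genes took 1.59%, 1.32% and 1.33% of summed FPKM in albino, 7.05%, 9.90% and 8.79% in green and 9.11%, 8.73% and 8.01% in wild-type libraries. Albino shares were all below the others, while green and wild-type shares overlapped. The Calvin-Benson genes took 1.12 ± 0.126% in albino, 7.52 ± 1.34% in green and 7.58 ± 0.472% in wild-type libraries, and the photorespiratory genes took 0.292 ± 0.0302% in albino, 1.06 ± 0.101% in green and 1.03 ± 0.0992% in wild-type libraries (SD, n = 3 each). The RBCS genes alone took 0.524 ± 0.074% in albino, 4.99 ± 1.02% in green and 4.97 ± 0.265% in wild-type libraries.

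**Figure D3:**
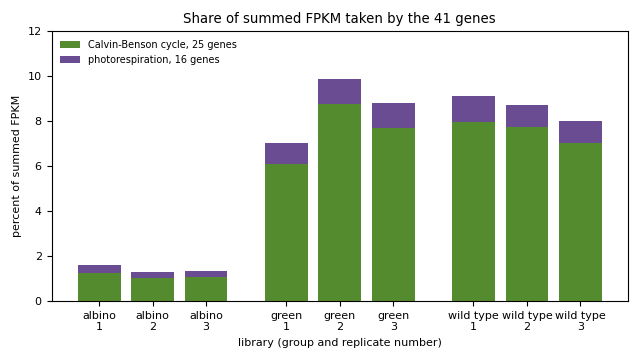
Percent of summed FPKM taken by the 25 Calvin-Benson genes and the 16 photorespiratory genes in each library, stacked from 0. Albino libraries reach 1.32% to 1.59%, green libraries 7.05% to 9.90% and wild-type libraries 8.01% to 9.11%.

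The balance between isoform genes was compared within each library, where the scaling of libraries cancels. For 9 pairs or groups of isoforms the log2 ratio of levels was tested over the 3 groups with an exact permutation test over all 1680 regroupings, adjusted over the 9. The smallest p these can give is 0.00357, and 8 of 9 passed. Ratios of unrelated genes were not tested, so no background share can be set beside this count. RBCS1A over the other RBCS genes had a mean log2 ratio of 1.32 in albino, 0.49 in green and 0.31 in wild-type libraries (exact permutation adjusted p = 0.0161), so the fall of RBCS1A was the smaller. As plain ratios of levels, GAPA1 over GAPA2 stood at 1.83 in albino, 0.910 in green and 0.881 in wild-type libraries (exact permutation adjusted p = 0.0129), a change of the leading gene. TKL1 over TKL2 was 11.4 in albino, 32.7 in green and 31.2 in wild-type libraries (exact permutation adjusted p = 0.0321). CP12-2 over CP12-1 was 0.113 in albino, 0.370 in green and 0.371 in wild-type libraries (exact permutation adjusted p = 0.0402). In these 4, albino libraries lay apart from both other groups, which overlapped each other.

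GLDP1 over GLDP2 was 1.15 in albino, 2.26 in green and 2.09 in wild-type libraries (exact permutation adjusted p = 0.0107), and GOX1 over GOX2 was 1.21 in albino, 1.60 in green and 1.45 in wild-type libraries (exact permutation adjusted p = 0.0129). PGK1 over PGK2 was 5.31 in albino, 5.88 in green and 6.98 in wild-type libraries (exact permutation adjusted p = 0.0107). GDCH3 over GDCH1 was 0.814 in albino, 0.997 in green and 1.201 in wild-type libraries (exact permutation adjusted p = 0.0107). For PGK and GDCH the 3 groups did not overlap and green libraries lay between the others. For GLDP green libraries lay just above the wild type without overlap, and for GOX these groups overlapped. The test covers the 3 groups at once, and single pairs of groups were not tested. FBA2 over FBA1 was the ratio that did not pass, at 3.40 in albino, 3.57 in green and 3.59 in wild-type libraries (exact permutation adjusted p = 0.532).

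**Figure D4:**
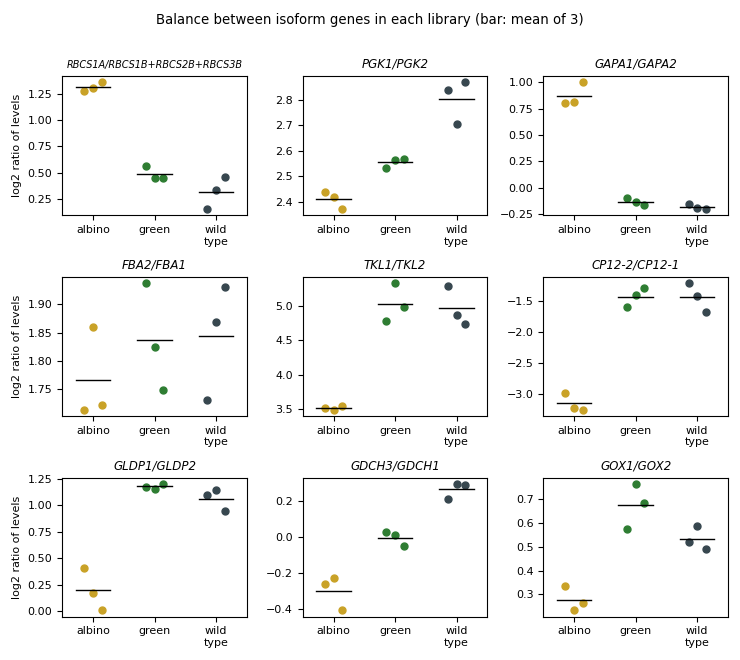
Log2 ratio of the levels of isoform genes in each of the 3 albino, 3 green and 3 wild-type libraries, with bars for means and an axis of its own in each panel. Albino libraries lie apart from the wild type in all panels but FBA2/FBA1, and PGK1/PGK2, GLDP1/GLDP2 and GDCH3/GDCH1 also separate green from wild-type libraries.

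The set was also read by the compartment of its proteins. Log2 fold changes of albino against wild-type seedlings had a median of -2.78 over 30 chloroplast genes, with a range of -5.03 to 0.90 and 27 called lower. The median was -2.35 over 6 mitochondrial genes, with a range of -2.71 to -1.76, and -2.31 over 5 peroxisomal genes, with a range of -2.56 to -1.98, and all of these were called lower. Of all tested genes, 20.1% were called lower in this comparison. The ranges overlapped, and the compartments were not tested against each other. Across the 41 genes, the log2 level in the wild type and the log2 fold change of albino against green had a Spearman's rho of -0.60 and a Pearson's r of -0.71. These points share their libraries, and the RBCS genes, RCA and CA1 hold one end while CP12-3 and TKL2 hold the other.

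**Figure D5:**
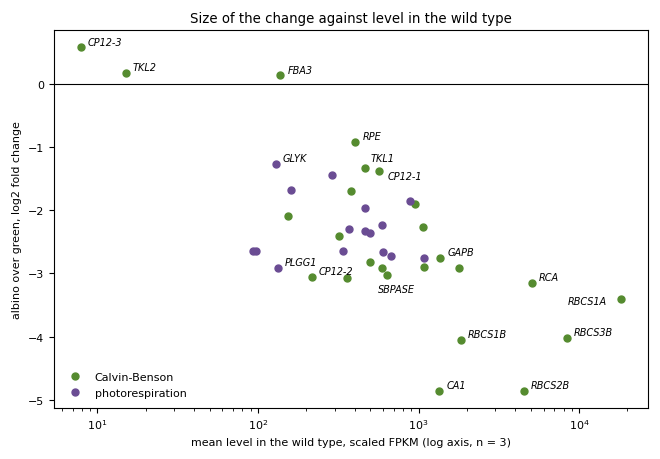
Log2 fold change of albino over green seedlings against the mean level in the wild type (log axis), for 25 Calvin-Benson genes (green points) and 16 photorespiratory genes (purple points). The RBCS genes, RCA and CA1 lie at high level with log2 fold changes of -3.15 and below, and CP12-3, TKL2 and FBA3 lie above 0.

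Genes next to the set in the same pathways were read from 4 lists. The shares of all tested genes to set beside their counts are 20.1% called lower and 23.4% higher in albino against wild-type seedlings, and 17.7% lower and 18.5% higher in albino against green seedlings. In green against wild-type seedlings they are 5.16% lower and 3.71% higher, 8.87% in either direction. Of 8 genes for the assembly and care of Rubisco, 7 were called lower and none higher in albino against wild-type seedlings, with a median of -1.12 (0.07 over all tested genes), and the gene not called was rbcL. Against green seedlings 7 were again called lower and none higher. CBBYA, a phosphatase that breaks down an inhibitor of Rubisco, stood at 26.5, 21.7 and 23.3 in albino, 130.3, 184 and 172 in green and 189.6, 139.9 and 149.8 in wild-type libraries, a log2 fold change of -2.69 ± 0.16 against the wild type (limma adjusted p = 2.9e-06). RBCX1, a Rubisco assembly chaperone, stood at 3.78, 3.51 and 2.83 in albino, 19.0, 16.2 and 16.6 in green and 6.33, 7.58 and 3.70 in wild-type libraries. Green libraries lay above all wild-type libraries in RBCX1, with a log2 fold change of 1.45 ± 0.20 (limma adjusted p = 0.0023), the one call of this list in green seedlings. Of 6 further genes of carbon metabolism in or near the plastid, 4 were called lower and none higher in albino against wild-type seedlings, and none was called in green. Against green seedlings 4 were also called lower and none higher. The largest fall was that of CA2, another carbonic anhydrase, at 67.0, 50.9 and 49.1 in albino, 359.9, 554 and 497 in green and 633, 539 and 417 in wild-type libraries (-3.22 ± 0.20, limma adjusted p = 4.26e-06).

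Of the 15 genes of cytosolic enzymes with the same reactions, 4 were called lower and 4 higher in albino against wild-type seedlings, with a median of 0.14. Both counts are near the 20.1% and 23.4% of all tested genes called lower and higher in that comparison. In albino against green seedlings 6 were called lower and 1 higher, where 17.7% and 18.5% of all tested genes were. FBA5, a cytosolic aldolase, stood at 0.471, 0.566 and 0.487 in albino, 17.0, 22.1 and 16.2 in green and 21.5, 17.6 and 8.03 in wild-type libraries (-3.37 ± 0.28 against the wild type, limma adjusted p = 1.52e-05). FBA6, another cytosolic aldolase, stood at 77.0, 78.1 and 98.4 in albino, 127, 197 and 197 in green and 48.6, 60.8 and 49.5 in wild-type libraries. It was higher in green seedlings (1.67 ± 0.18, limma adjusted p = 0.000893) and in albino seedlings (0.66 ± 0.18, limma adjusted p = 0.015) than in the wild type. FBA6 was the one call of this list in green against wild-type seedlings, where 8.87% of all tested genes were called. PGLP2, the cytosolic phosphoglycolate phosphatase, was the gene called higher in albino against green seedlings, with a log2 fold change of 0.27 ± 0.08 (limma adjusted p = 0.022).

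Of 22 other genes tied to photorespiration, 11 were called lower and 3 higher in albino against wild-type seedlings, with a median of -0.32, where 20.1% of all tested genes were called lower and 23.4% higher. In albino against green seedlings 10 were called lower and 2 higher, where 17.7% and 18.5% of all tested genes were. The counts of higher calls lay below the shares of all tested genes in both comparisons. GS2, the plastid glutamine synthetase that recaptures ammonia, stood at 244, 204 and 205 in albino, 1122, 1721 and 1398 in green and 1512, 1532 and 1268 in wild-type libraries, the largest fall of this list (-2.72 ± 0.18, limma adjusted p = 4.43e-06). HAOX1, a peroxisomal hydroxy-acid oxidase of the family of glycolate oxidase, stood at 6.62, 7.27 and 8.56 in albino, 4.40, 4.77 and 4.02 in green and 3.42, 3.30 and 3.28 in wild-type libraries (0.96 ± 0.10, limma adjusted p = 7.09e-05). PMDH1, a peroxisomal malate dehydrogenase, stood at 55.4, 57.5 and 52.8 in albino, 36.5, 27.0 and 32.5 in green and 31.7, 30.7 and 33.4 in wild-type libraries, and was higher in albino than in green seedlings (0.78 ± 0.11, limma adjusted p = 0.000434). GLT1, the NADH-dependent glutamate synthase, was the one call of this list in green against wild-type seedlings, at 83.5, 83.0 and 65.9 in albino, 77.4, 75.2 and 70.0 in green and 98.3, 124 and 109.8 in wild-type libraries (-0.57 ± 0.12, limma adjusted p = 0.0191). In that comparison 8.87% of all tested genes were called.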

How the data were processed

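Whole 6-day-old seedlings were profiled by RNA sequencing, 3 libraries each of albino 2cpab, green 2cpab and the wild type, and grouped by the labels. Per the labels' protocols, a SurePrep kit was used for extraction, and the Illumina Stranded mRNA ligation kit turned poly(A) RNA into libraries. FastQC, HISAT2, StringTie and the TAIR10 genome are named, per the submitters' processing notes, without versions. The table that the authors deposited holds log2 values of 32833 genes in 9 libraries. Judged by the numbers, they are the log2 of 1 plus FPKM multiplied by a factor, which sets the 75th percentile of each library to 3.70. The factor was 0.787 ± 0.00551 in albino, 1.04 ± 0.0848 in green and 1.05 ± 0.0528 in wild-type libraries (SD, n = 3 each). With it undone, 81.8% to 83.9% of values under 1 fell on a grid of 6 decimals (tolerance 0.1 of a step), against 19.6% to 21.1% if scaling had followed the log. The plan had foreseen a pseudocount of 1, which the authors had already applied, so the values were not logged again.

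Genes of at least 1 scaled FPKM in at least 3 libraries, 19731 in all, were tested with limma 3.58.1 in R 4.3.3 (1 mean per group, moderated variances with a trend, all 9 libraries). P values were adjusted by Benjamini-Hochberg in each comparison and called below 0.05. Isoform ratios were tested with exact permutation. Tables, sequence windows and plots were made in Python 3.11.15 with numpy 2.4.6, pandas 2.3.3, biopython 1.88 and matplotlib 3.10.9. Sequences and positions came from RefSeq's TAIR10.1 assembly, and motifs were searched in the 250 bases before each gene start.

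The 41 members and the lists of other genes were chosen with earlier results of these data known. Values in every library are given for the gene of highest mean in each step, those called in green seedlings, the 6 largest called changes of each albino comparison, and both genes of isoform pairs that passed. From each list of other genes the largest called change in each direction is named, or else the gene of highest mean. CP12-3, FBA3, rbcL and members described by mean or fold change alone were named after their values were seen.

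On simulated data drawn from the real means and spread, 96%, 80%, 92% and 98% of genes changed 0.25, 0.5, 2 and 4 fold were called in green against wild-type libraries, with 12 false calls among 19731 genes. In albino against wild-type libraries 98%, 86%, 88% and 98% were called, with 21 false calls. The changes were placed only in genes above a low level, and in far fewer genes than were called in the data. Noise was independent between genes and of the same size in every group, so simulated libraries did not move together as the real ones did. These shares need not hold for the data. Alternatives changed the pseudocount (0.1 or 5), filter, scaling, fit and the libraries included. Plastid transcripts other than rbcL, splicing and proteins were not analysed here.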

Additional observations from a re-analysis of the deposited data

How the results depend on the processing

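The 38 falls in albino against wild-type seedlings kept their direction and call under all 23 alternatives run. Against green seedlings they did so under all but one: with green replicate 1 kept alone in its group 37 genes were called, all lower, and RPE (-0.68, adjusted p = 0.0766) and CP12-3 (0.60, adjusted p = 0.0996) lost their calls. That setting also put the median at -0.37 in green against wild-type and -2.30 in albino against green seedlings, and GDCH1 in green against wild-type seedlings at -0.0043; the lone library is assumed to vary like the other groups. A required 1.5-fold change left 38 calls against green seedlings, without CP12-3. Scaling changed the size of the albino fall. The median against the wild type was -2.12 with the authors' scaling undone, -2.07 as TPM, -2.06 with the same sum without organelle genes and -1.98 after quantile normalization, and against green it was -2.26, -2.21, -2.20 and -1.98 in that order. With median-of-ratios scaling the median of the set was -2.60 against the wild type and -2.70 against green. The median of all tested genes in albino against wild-type seedlings was 0.44 with the scaling undone, 0.50 as TPM and 0.49 with the same sum. It was 0.06 after quantile normalization and 0.02 with median-of-ratios scaling.

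The single call in green seedlings was fragile. No gene was called without a filter, with only the 6 libraries compared or with the replicate block, where RPE had adjusted p of 0.06, 0.1 and 0.0577. Leaving out single libraries gave 0 to 2 calls. Same-numbered libraries of different groups correlated at -0.15 to 0.28, and differently numbered ones at -0.36 to 0.15. Green and wild-type libraries correlated at 0.28 for replicate 2, 0.27 for replicate 3 and -0.08 for replicate 1. Whether the numbers pair libraries was not settled by these values, and the main fit used no pairing. The replicate block gave 39 calls in each albino comparison. The isoform count was 8 with either added pseudocount and with any single library left out. Undoing the scaling cannot change these ratios, and the other alternatives were not run for them. No library left out moved the albino calls below 39. Genes near the filter are measured least precisely, and depth could not be read.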
